A study of Mus musculus with 16 samples.

Results

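The genes described here encode splicing factors and nuclear RNA-binding proteins. They were picked by gene symbol alone: the Srsf, Srrm, Hnrnp, Sf3a, Sf3b, Snrp and Prpf families, with Alyref, U2af1, U2af2 and Rbbp6 added by name. Of the 13982 genes in the expression table, 72 matched, and 69 reached 1 FPKM (fragments per kilobase of transcript, scaled to the library's total) in at least 4 of the 16 libraries. The 3 that did not were Snrpn, Srrm3 and the pseudogene Hnrnpa1l2-ps2, whose highest values in any library were 0.03, 0.39 and 0.10 FPKM. Just inside that limit lay Prpf19, with a mean of 1.41 FPKM and 13 libraries at 1 FPKM or more, and Prpf40b, with a mean of 1.67 FPKM and 5 such libraries. By role, the 69 genes were 10 SR proteins, 3 SR-related and nuclear matrix proteins (Srrm1, Srrm2 and Rbbp6), 20 hnRNPs, 11 subunits of SF3A, SF3B and U2AF, 11 Sm and other snRNP proteins, 13 PRPF proteins and the export adaptor Alyref.

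Introns are removed by the spliceosome, which is built from small nuclear RNAs and their proteins. Sm proteins form the ring on most of those RNAs, U2AF reads the 3′ splice site, SF3A and SF3B hold the U2 particle on the branch point, and many PRPF proteins belong to the U4/U6.U5 particle or drive its rearrangements. SR proteins bind exons and mostly favour their inclusion, whereas hnRNPs coat the nascent transcript and often oppose it. CLK and SRPK kinases phosphorylate SR proteins, and ALYREF hands spliced mRNA to the export machinery. Many genes of SR proteins and hnRNPs carry exons or introns through which the proteins limit their own mRNA.

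The libraries came from cells labelled microglia, the resident macrophages of the brain, which were sorted with antibodies against CD45 and CD11b from dissected infarct cortex of C57BL/6 mice. The 16 libraries formed 4 groups of 4. Sham libraries came from untreated sham mice. MCAO libraries came from mice after middle cerebral artery occlusion, an experimental stroke. MCAO+Ctrl-exos and MCAO+AS-exos libraries came from occluded mice that were also injected through a tail vein, every 3 days from the operation onward, with exosomes purified from plasma (150 µg each time). The exosome donors were Apoe knockout mice on a western or a normal diet, the western diet being given for 12 weeks to produce atherosclerosis; which diet stands behind which group name is not spelled out in the labels. Both exosome groups share the occlusion, the injections and the donor genotype, and none of these groups received injections without exosomes. Age, sex, the time of sorting and whether each library is a separate mouse are not given in the sources used here, so p-values measure the spread between these libraries, which may be partly technical.

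The libraries summed to between 758283 and 983648 FPKM, with 8813 to 10003 genes at 1 FPKM or more; sequencing depth is unknown. The sorted cells differed in their markers between groups. The summed level of 15 resting microglia markers was 23900 to 27430 FPKM in Sham and 1317 to 2237 FPKM in the 12 libraries of occluded mice. Sall1, the transcription factor that defines microglia, averaged 102 FPKM in Sham and 0.13 to 0.315 FPKM in the other 3 groups. Summed levels of 15 monocyte markers were 218 to 615 FPKM in Sham and 10810 to 27970 FPKM in the other groups, and neuron markers summed to at most 6.96 FPKM in any library. Replicate 4 of MCAO+AS-exos differed from replicates 1 to 3 of its group. Its mean correlation across genes with them was 0.915, against 0.922 with MCAO and 0.928 with MCAO+Ctrl-exos. Within MCAO such means ran from 0.905 to 0.92, so 0.915 was ordinary for a group. Replicates 1 to 3 were instead unusually alike. The highest correlation of each within its group was 0.983 to 0.985, against at most 0.937 within Sham, MCAO or MCAO+Ctrl-exos. Values of that group's comparisons that rest on replicate 4 are given with and without it. Every library was left out in turn, but this one is singled out because its values were seen to differ. Leaving out such a library narrows the spread of its group. The p-values and calls without it thus describe the other 3 libraries and are no independent test. Whether those 3 are separate mice is not given. Their spread may be smaller than that between mice, so the calls without replicate 4 may be too many. In bulk RNA, a smaller share of the cells that hold a transcript and less transcript per cell cannot be told apart.

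**Figure D1:**
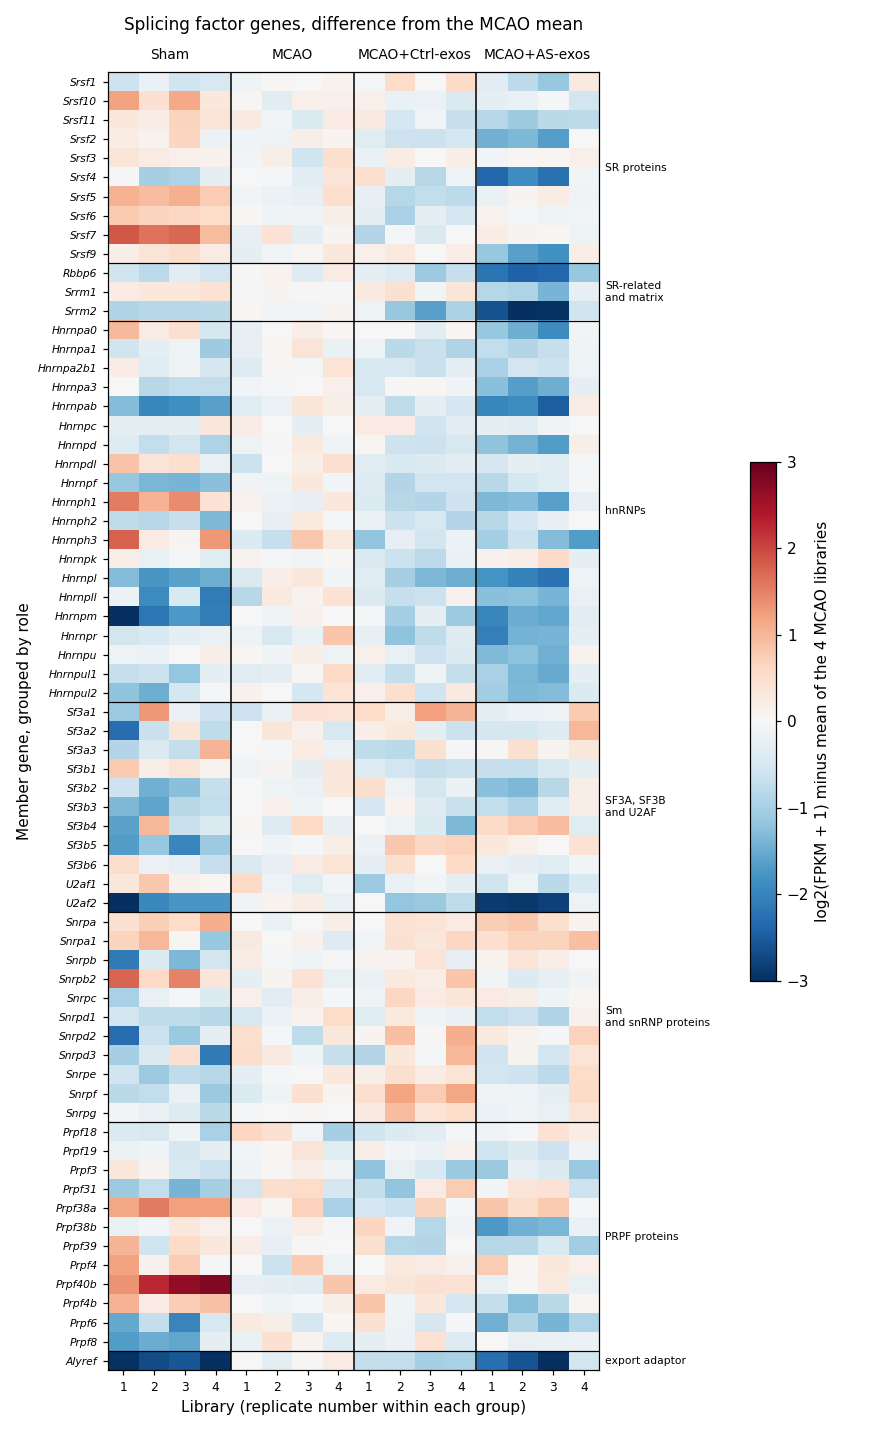
Level of 68 of the 69 genes (rows, grouped by role) in each of the 16 libraries (columns, grouped), as the difference of log2(FPKM + 1) from the mean of the 4 MCAO libraries; the colour scale is capped at 3 in either direction. Many rows darken towards lower values in replicates 1 to 3 of MCAO+AS-exos and not in replicate 4, and the Sham columns differ from MCAO in both directions.

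Occlusion alone was read from MCAO against Sham. After it, genes for Alyref, several hnRNPs and several core spliceosome subunits rose, while no SR protein gene rose and 4 fell. Of the 69 genes, 19 rose and 9 fell at an adjusted p under 0.05 in limma, beside 24.5% of all 10846 tested genes that rose and 14.8% that fell; the shares among the 69 were 27.5% and 13%, close to that background. All 4 MCAO values lay above all 4 Sham values in 19 of the 69 genes and below them in 10, beside 21.8% and 12.0% of all genes. The risers held Alyref, 6 of 20 hnRNPs, 5 of 11 Sm and snRNP genes, 4 of 11 SF3 and U2AF genes and 3 of 13 PRPF genes, and no SR protein gene. The genes that fell held 4 of 10 SR protein genes, 2 PRPF genes, 2 snRNP genes and 1 hnRNP gene. The median log2 fold change was 0.38 over the 69 genes and 0.26 over all genes tested, and -0.37 over the SR protein genes. Quantile normalization took the median of all genes to -0.03 and the split of all calls from 2654 risers and 1600 fallers to 2084 and 2164, while 15 of the 69 genes then rose and 10 fell. Of the Sm and snRNP genes, 2 then rose and 2 fell. With length and GC trends removed, 4 Sm and snRNP genes rose and 1 fell. Of SF3 and U2AF genes 3 rose and 1 fell (median 0.125, against 0.425), and of PRPF genes 1 rose and 2 fell. In both settings 4 SR protein genes fell and none rose. Averaged over Sham libraries, the median log2 difference from the MCAO mean was -0.68 for the 20% of genes highest in GC and 0.29 for the lowest 20%.

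Alyref, the adaptor that couples splicing to mRNA export, had the largest rise of the 69. Its level in the 4 Sham libraries was 5.35, 6.77, 7.41 and 4.16 FPKM, and in the 4 MCAO libraries it was 48.2, 39.9, 50.2 and 58.3 FPKM. Every MCAO library lay above every Sham library, and the mean went from 5.92 ± 1.46 to 49.1 ± 7.55 FPKM (SD, n = 4 in this and every later mean), a ratio of 8.3. On the scale of log2(FPKM + 1), which understates the change of low genes, this was a fold change of 2.87 ± 0.40 (SE; adjusted p = 1.24e-05, limma).

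Hnrnpm, an hnRNP that regulates alternative exons, read 12.4, 26.2, 35.8 and 28.1 FPKM in Sham and 121, 112, 131 and 119.7 FPKM in MCAO. The groups were far apart, with a log2 fold change of 2.28 ± 0.36 (adjusted p = 4.20e-05). U2af2, the large U2AF subunit that contacts the polypyrimidine tract, read 6.08, 13.7, 15.9 and 15.7 FPKM in Sham, replicate 1 being the low one, and 51.6, 59, 64.2 and 47.4 FPKM in MCAO. Its log2 fold change was 2.10 ± 0.49 (adjusted p = 0.00216). Its small partner U2af1, which contacts the AG at the intron end, did not pass the test: it averaged 111 ± 28.7 FPKM in Sham and 88.7 ± 28.2 FPKM in MCAO (log2 fold change -0.33 ± 0.28), so the values of the U2AF subunits lay in opposite directions, a difference that was not itself tested.

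Hnrnpab and Hnrnpl, which bind AU-rich and CA-rich RNA, also rose. Hnrnpab was 60.3, 38, 41 and 47.5 FPKM in Sham and 117, 132, 192 and 170.3 FPKM in MCAO (log2 fold change 1.68 ± 0.40). Hnrnpl was 14.6, 10.5, 11.5 and 13 FPKM in Sham and 27.6, 43, 46.8 and 35.2 FPKM in MCAO (log2 fold change 1.53 ± 0.39). Neither gene's groups overlapped. Hnrnpf, a binder of G-rich tracts and by mean level the highest hnRNP, rose from 162 ± 14.1 to 399 ± 60.8 FPKM with a log2 fold change of 1.29 ± 0.20. Hnrnph1, its close relative, went the other way: 493, 353, 455 and 229 FPKM in Sham and 184, 150.5, 143 and 212 FPKM in MCAO, again without overlap, a log2 fold change of -1.10 ± 0.29 (adjusted p = 0.00522). Of the same family, Hnrnph2 rose (0.91) and Hnrnph3 did not pass the test (-0.85 ± 0.42); these 2 are outside the naming rule and were added after their values were seen. Hnrnpa2b1, the second hnRNP by mean level, averaged 265 ± 62.3 FPKM (Sham) and 303 ± 68.6 FPKM (MCAO) and did not pass the test.

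Promoter sequences are shown for 6 of these genes, 4 that fell in MCAO+AS-exos against MCAO (Alyref, Rbbp6, Srrm2 and Hnrnpm) and 2 SR protein genes that fell after occlusion. The genes were picked from those calls, and a link between promoter sequence and level was not tested. The windows are RefSeq sequences of build GRCm38.p6, 300 bases each, 250 before and 50 after the annotated start, 5′ to 3′ on the gene's strand. Capitals mark matches, on either strand, to the GC box of SP1 and KLF proteins (letters GGGCGG), an ETS family motif (letters CCGGAAG), the CCAAT box, the core of the cAMP response element (letters TGACGT) or the TATA box (letters TATAAA); in Srsf5 a GC box and an ETS match share a base. The regions are chr11:120598316-120598615 on the minus strand for Alyref, chr7:122970314-122970613 on the plus strand for Rbbp6, chr17:23802937-23803236 on the plus strand for Srrm2 (the first of 2 listed), chr17:33685409-33685708 on the minus strand for Hnrnpm, chr12:80945249-80945548 on the plus strand for Srsf5 and chr17:80207256-80207555 on the minus strand for Srsf7.
Alyref: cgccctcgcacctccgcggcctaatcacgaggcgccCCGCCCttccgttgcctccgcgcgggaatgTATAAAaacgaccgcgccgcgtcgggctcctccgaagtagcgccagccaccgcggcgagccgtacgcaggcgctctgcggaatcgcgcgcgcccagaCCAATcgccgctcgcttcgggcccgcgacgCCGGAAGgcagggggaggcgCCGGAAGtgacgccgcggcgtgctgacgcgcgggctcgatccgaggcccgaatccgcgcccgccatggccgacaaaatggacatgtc
Rbbp6: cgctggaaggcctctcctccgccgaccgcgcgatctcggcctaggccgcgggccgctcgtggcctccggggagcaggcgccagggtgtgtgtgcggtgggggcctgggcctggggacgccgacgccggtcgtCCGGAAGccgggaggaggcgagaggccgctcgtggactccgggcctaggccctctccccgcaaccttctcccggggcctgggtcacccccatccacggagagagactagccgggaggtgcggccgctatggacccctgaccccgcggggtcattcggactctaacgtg
Srrm2: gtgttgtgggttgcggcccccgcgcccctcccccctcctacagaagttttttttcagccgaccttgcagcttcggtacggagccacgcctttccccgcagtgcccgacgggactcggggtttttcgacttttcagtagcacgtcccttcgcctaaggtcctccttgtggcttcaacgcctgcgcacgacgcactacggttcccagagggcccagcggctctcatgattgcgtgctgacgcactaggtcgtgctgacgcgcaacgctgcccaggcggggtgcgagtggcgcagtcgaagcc
Hnrnpm: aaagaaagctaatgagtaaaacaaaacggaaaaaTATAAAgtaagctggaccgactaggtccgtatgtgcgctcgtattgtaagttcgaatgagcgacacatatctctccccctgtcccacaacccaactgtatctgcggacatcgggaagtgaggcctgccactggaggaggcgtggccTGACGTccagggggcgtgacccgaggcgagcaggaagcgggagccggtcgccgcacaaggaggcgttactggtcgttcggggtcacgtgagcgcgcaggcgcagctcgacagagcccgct
Srsf5: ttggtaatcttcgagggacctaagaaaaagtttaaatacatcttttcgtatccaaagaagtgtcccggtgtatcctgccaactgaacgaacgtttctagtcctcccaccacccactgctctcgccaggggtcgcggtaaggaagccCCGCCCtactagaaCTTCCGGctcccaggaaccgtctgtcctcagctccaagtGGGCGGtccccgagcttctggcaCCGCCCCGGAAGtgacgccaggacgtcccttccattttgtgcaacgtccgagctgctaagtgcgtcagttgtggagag
Srsf7: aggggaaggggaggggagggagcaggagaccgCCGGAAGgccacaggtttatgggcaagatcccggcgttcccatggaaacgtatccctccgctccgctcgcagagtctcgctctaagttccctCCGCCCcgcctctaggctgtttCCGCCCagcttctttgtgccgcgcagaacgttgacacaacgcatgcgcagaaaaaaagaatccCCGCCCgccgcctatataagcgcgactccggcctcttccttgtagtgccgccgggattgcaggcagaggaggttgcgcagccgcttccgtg
The Alyref window holds a GC box, 2 ETS matches, a CCAAT box and a TATA match, the Srsf5 and Srsf7 windows hold 3 GC boxes each, and the Srrm2 window holds none of the 5 motifs. A promoter was found for 60 of the 69 genes. CCGGAAG occurred in 35% of those 60 promoters and in 20% of the 8755 promoters of tested genes, TGACGT in 26.7% and 12.6%, CCAAT in 50% and 39.2%, GGGCGG in 66.7% and 64.3%, and TATAAA in 11.7% and 7.04%. These are counts of letters in a window, with no test and no data on binding.

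Among the core spliceosome genes, Sf3b5, a small SF3B subunit, read 65.1, 94.5, 53.2 and 97.1 FPKM in Sham and 211, 191, 199 and 235 FPKM in MCAO, a log2 fold change of 1.46 ± 0.24 (adjusted p = 8.86e-05) with no overlap. Sf3b6, the subunit next to the branch point, averaged 137 ± 50.5 and 149 ± 41 FPKM and did not pass. Sf3b3 (1.12) and Sf3b2 (1.0) were the other SF3 genes that rose. Of the Sm ring genes, Snrpb (1.10), Snrpd2 (1.08), Snrpe (0.83), Snrpd1 (0.73) and Snrpf (0.72) rose. Snrpe was 473, 339, 425 and 399.9 FPKM in Sham and 601, 695, 715 and 904 FPKM in MCAO. Snrpg, the highest of the Sm genes by mean level, was 734, 666, 598 and 445 FPKM in Sham and 748, 786, 793 and 778 FPKM in MCAO: its groups did not overlap but its log2 fold change of 0.37 ± 0.20 did not pass (adjusted p = 0.157). The U1 protein gene Snrpa (-0.70) and the U2 protein gene Snrpb2 (-1.05) fell. Several Sm genes and Hnrnpa1 have near-identical copies elsewhere in the genome, so their levels are uncertain to the extent that fragments were shared between copies.

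The PRPF genes were divided, with a median log2 fold change of 0.17 that became -0.16 under quantile normalization. Among those that rose were Prpf8, the catalytic-centre scaffold (1.25), and Prpf6 (1.17). Prpf40b read 2.18, 5, 6.93 and 7.69 FPKM in Sham and 0.07, 0.05, 0 and 1.24 FPKM in MCAO, so it was near the detection limit after occlusion. Its log2 fold change was -2.26 ± 0.37 (adjusted p = 7.83e-05). Only the Sham libraries and MCAO replicate 4 reached 1 FPKM, so it entered the test through the group where it was high. The filter thus favoured a fall, and its call is not independent of that filter. Prpf38a, a component recruited at activation of the spliceosome, read 36.5, 47.7, 37.8 and 37.8 FPKM in Sham and 18.8, 16, 26.1 and 7.44 FPKM in MCAO, without overlap (log2 fold change -1.29 ± 0.36). Its relative Prpf38b averaged 46.1 ± 7.63 and 44.5 ± 4.78 FPKM.

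The SR protein genes fell or did not pass. Srsf5, the most abundant SR protein transcript, read 624, 569.6, 632 and 508 FPKM in Sham and 286, 265, 253 and 427 FPKM in MCAO. Srsf7, which binds exonic GA-rich motifs and also acts in export, read 275, 233, 248 and 145 FPKM in Sham and 63, 102, 61.9 and 79.7 FPKM in MCAO. All 4 Sham values lay above all 4 MCAO values for both genes, with log2 fold changes of -0.95 ± 0.21 (adjusted p = 0.00124) and -1.53 ± 0.26 (adjusted p = 1.02e-04). Srsf10 (-0.78) and Srsf6 (-0.66) fell as well. Srsf2, whose protein is found in nuclear speckles, averaged 308 ± 76.3 FPKM (Sham) and 263 ± 31.3 FPKM (MCAO) and did not pass (adjusted p = 0.603, limma). Srrm2, a scaffold of nuclear speckles, was 67.2, 68.5, 69.5 and 71.5 FPKM in Sham and 131, 119, 119 and 134 FPKM in MCAO; the groups did not overlap, but the log2 fold change of 0.85 ± 0.41 did not pass (adjusted p = 0.105).

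**Figure D2:**
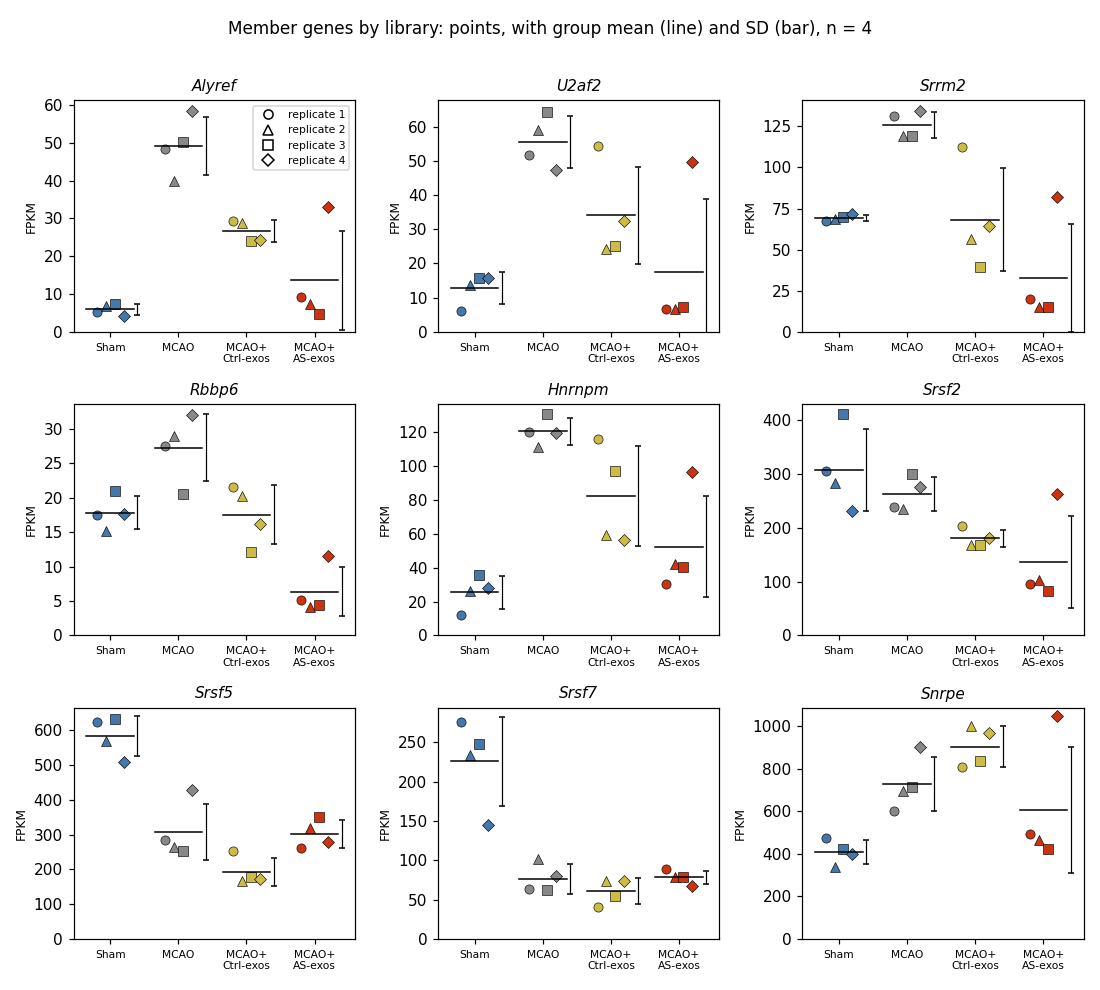
FPKM (linear axis from 0) of 9 genes in every library, by group, with the mean and SD of each group of 4; point shapes mark the replicate number, and an SD bar that would pass below 0 ends at the axis. Alyref, Hnrnpm and U2af2 are higher in MCAO than in Sham, Srsf5 and Srsf7 are lower, and in MCAO+AS-exos replicate 4 lies above the other 3 libraries for Alyref, U2af2 and Srrm2.

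Other genes of the pathway were read from lists of kinases, further spliceosome subunits, splicing regulators, export and 3′ end factors and other nuclear RNA-binding proteins. Of 130 tested, 27 rose (20.8%) and 13 fell (10%) after occlusion, shares below the 24.5% and 14.8% over all genes tested. The SR kinase gene Clk1 fell from 881, 595, 754 and 413 FPKM in Sham to 105, 113, 102 and 91.6 FPKM in MCAO, a log2 fold change of -2.62 ± 0.23 (adjusted p = 2.37e-08); of the 6 kinases, 2 fell and none rose. The RNA helicase gene Ddx5 fell as well (log2 fold change -1.94 ± 0.21), and the cold-inducible RNA-binding protein gene Rbm3 rose (1.38 ± 0.23). Snrnp25, of the minor spliceosome, rose by a log2 fold change of 3.25 ± 0.65 from Sham values of 17, 0.07, 0.38 and 9.93 FPKM, which varied widely. Of the other spliceosome genes 12 of 39 rose and 1 fell, and of the other nuclear RNA-binding protein genes 7 of 19 rose and none fell. Alongside, all 15 resting microglia markers fell, all 15 monocyte markers and 18 of 20 proliferation genes rose, and 14 of 19 tested immediate early genes fell (summed level 11770 to 16000 FPKM in Sham and 3668 to 4535 FPKM in MCAO). The part of these shifts in the splicing gene levels was not tested.

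MCAO+Ctrl-exos was compared with MCAO to read the control exosomes together with their injection, which cannot be told apart in this design. No gene of the 69 passed the test in limma in either direction, beside 0.0461% of all genes that rose and 0.0277% that fell. At an unadjusted p under 0.05, 2 were higher and 13 lower, where 4.51% and 6.38% of all genes were. In 2 genes all 4 values of MCAO+Ctrl-exos lay above MCAO and in 10 they lay below, beside 1.99% and 3.99% of all genes. The Sm and hnRNP genes leaned apart: 10 of 11 Sm and snRNP genes had a positive log2 fold change, with a median of 0.29, and 19 of 20 hnRNPs had a negative one, with a median of -0.48, against -0.14 for all genes; with totals scaled to be equal these medians were 0.08, -0.68 and -0.31.

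Alyref was 29.4, 28.8, 24.1 and 24.2 FPKM in MCAO+Ctrl-exos, below all MCAO libraries and above all Sham libraries, with a log2 fold change against MCAO of -0.85 ± 0.40 that did not pass (adjusted p = 0.454). Srsf5 was 253, 166, 179 and 173 FPKM there, each value under the lowest MCAO value (-0.66 ± 0.21, adjusted p = 0.253). Hnrnpf likewise lay below MCAO in all 4 libraries, at 303, 213, 268 and 265 FPKM (-0.60 ± 0.20, adjusted p = 0.285). Snrpg was 935, 1487, 1027 and 1129 FPKM, above every MCAO library (0.54 ± 0.20, adjusted p = 0.338). The other Sm gene whose groups did not overlap was Snrpf, at 237, 391, 288 and 379 FPKM (0.89 ± 0.26), named here after its values were seen. Without both MCAO+Ctrl-exos replicate 1 and MCAO+AS-exos replicate 4, a choice made after seeing the data, Snrpf rose and Hnrnpl and Srrm2 fell, beside 1.06% of all genes that rose and 0.489% that fell.

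MCAO+AS-exos was next compared with MCAO. The MCAO libraries are shared with the control-exosome comparison and with that of MCAO against Sham. Of the 69 genes, 15 fell and none rose in limma, beside 5.08% of all genes tested that fell and 1.06% that rose. The 15 were Alyref, the 3 SR-related genes Srrm2, Rbbp6 and Srrm1, the SR protein genes Srsf4, Srsf2 and Srsf11, the hnRNP genes Hnrnpl, Hnrnpab, Hnrnpm, Hnrnpr, Hnrnpa3 and Hnrnph1, with U2af2 and Prpf38b. None of the 11 Sm and snRNP genes fell. At an unadjusted p under 0.05, 32 were lower and 1 higher, where 18.8% and 6.91% of all genes were. Median log2 fold changes were -2.03 for the SR-related genes, -1.03 for hnRNPs, -0.44 for PRPF genes, -0.38 for SR protein genes, -0.24 for SF3 and U2AF genes and 0.01 for Sm and snRNP genes, against -0.17 over all genes; the Sm median was -0.14 under quantile normalization. With trends in transcript length and GC removed, the hnRNP median was -0.56 and none of the 6 hnRNP genes passed, and the medians were -0.11 for SR protein genes, 0.12 for PRPF genes and 0.03 over all genes. In 11 of the 69 genes all 4 MCAO+AS-exos values lay below all 4 MCAO values, and in 1, Snrpa1, above, beside 10.1% and 4.29% of all genes.

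The count rests on single libraries, and the fit without MCAO+AS-exos replicate 4 rests on 3 libraries of that group that were unusually alike. Without MCAO+AS-exos replicate 4, 28 of the 69 fell, among them all 15, and 1, Snrpa, rose, beside 14.8% and 3.89% of all genes; without replicate 1, 2 or 3 of that group none fell, and without any 1 of the 4 MCAO libraries 3 fell, each time Rbbp6, Alyref and Srrm2. With quantile normalization 8 fell, with trends in transcript length and GC removed 5 (Rbbp6, Srsf2, Alyref, U2af2 and Srrm2), with only the 8 libraries of these groups 1 (Rbbp6) and with a weight for each library 35.

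**Figure D3:**
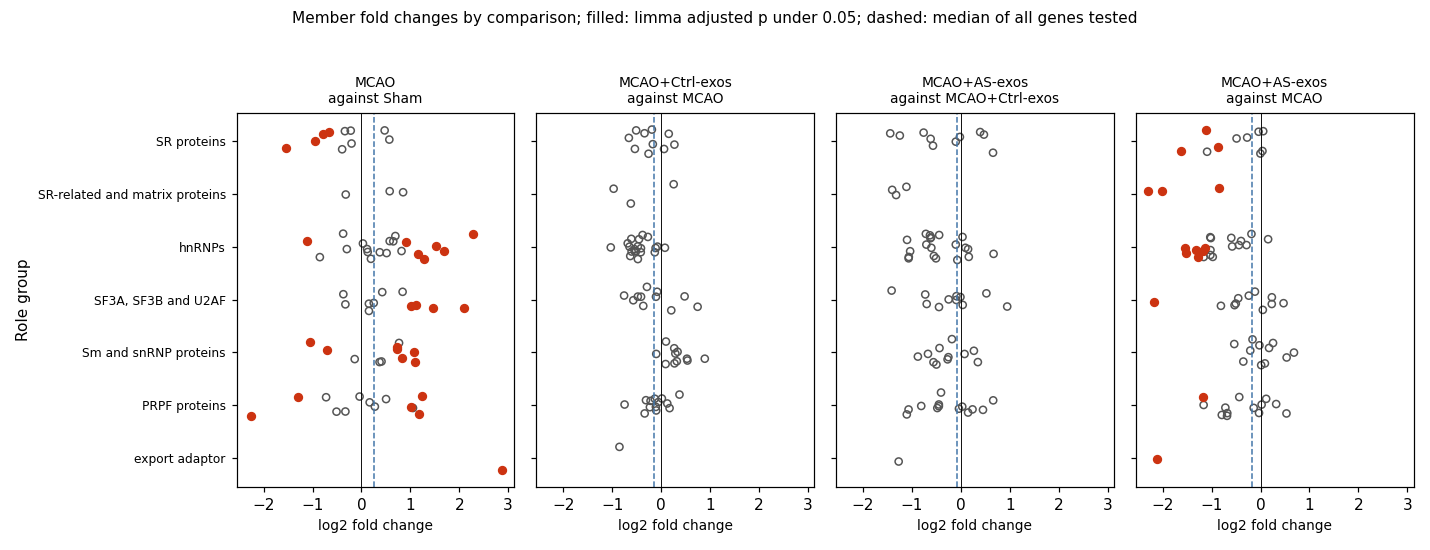
Log2 fold change of each of the 69 genes (points, by role) in the 4 comparisons; filled points have an adjusted p under 0.05, and the dashed line is the median of all genes tested. Filled points lie on both sides of 0 in MCAO against Sham, are absent from the comparisons of MCAO+Ctrl-exos with MCAO and of MCAO+AS-exos with MCAO+Ctrl-exos, and lie below 0 only in MCAO+AS-exos against MCAO.

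Srrm2 had the largest fall. Its values were 19.7, 14.9, 15.1 and 82.2 FPKM in MCAO+AS-exos, against 119 to 134 FPKM in MCAO. Replicates 1 to 3 lay below every library of the other 3 groups and replicate 4 above every Sham library. The log2 fold change against MCAO was -2.30 ± 0.41 (adjusted p = 0.0153) and -2.86 ± 0.28 without replicate 4. Rbbp6, a ubiquitin ligase that acts in 3′ end processing, read 5.14, 4.2, 4.49 and 11.6 FPKM against 27.5, 29, 20.5 and 32 FPKM in MCAO, so all 4 values were below those of every other group's libraries (-2.03 ± 0.32, adjusted p = 0.0124, and -2.32 ± 0.28 without replicate 4). Srrm1, a coactivator that bridges SR proteins and U1, was 23.5, 22.5, 15.8 and 36.4 FPKM against 41.7, 46.3, 44.5 and 41.5 FPKM, also without overlap (-0.86 ± 0.25, adjusted p = 0.0485, and -1.06 ± 0.22 without replicate 4).

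Alyref read 9.3, 7.32, 4.78 and 33 FPKM in MCAO+AS-exos, replicates 1 to 3 within or just above the Sham range of 4.16 to 7.41 FPKM and replicate 4 above every MCAO+Ctrl-exos library. Its log2 fold change against MCAO was -2.13 ± 0.40 (adjusted p = 0.0197) and -2.65 ± 0.29 without replicate 4. In U2af2 replicate 4 was far from the others: 6.65, 6.6 and 7.12 FPKM in replicates 1 to 3 and 49.7 FPKM in replicate 4, inside the MCAO range of 47.4 to 64.2 FPKM. It fell with a log2 fold change of -2.18 ± 0.49 (adjusted p = 0.0261), and of -2.85 ± 0.34 without replicate 4. U2af1, by contrast, was 55.9, 77.6, 48.5 and 62 FPKM, replicate 4 among the others, with a log2 fold change of -0.51 ± 0.28 that did not pass.

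Hnrnpm was 30.4, 42.5, 40.2 and 96.6 FPKM, all below the lowest MCAO value (-1.33 ± 0.36, adjusted p = 0.0386, and -1.67 ± 0.33 without replicate 4). Hnrnpab was 37.9, 40.3, 26.1 and 175 FPKM; replicates 1 to 3 lay below every MCAO and MCAO+Ctrl-exos library and replicate 4 within the MCAO range (-1.52 ± 0.40, adjusted p = 0.0374, and -2.10 ± 0.25 without replicate 4). Hnrnpl had the same order, with 10.2, 8.45, 7.26 and 33.8 FPKM (-1.54 ± 0.39, and -2.01 ± 0.31 without replicate 4). These 3 genes, which rose after occlusion, read nearer to Sham than to MCAO in replicates 1 to 3. The rise and the fall were read against the same MCAO libraries, so values high there by chance would favour both. Hnrnph1, which had already fallen after occlusion, fell further, to 66.4, 68.6, 54.5 and 143 FPKM with replicate 4 just inside the MCAO range (-1.13 ± 0.29, adjusted p = 0.0348, and -1.42 ± 0.25 without replicate 4). Without replicate 4, 14 of the 20 hnRNP genes fell and none rose, beside 14.8% and 3.89% of all genes. Hnrnpk, a poly(C)-binding hnRNP, was an exception: replicates 1 to 3 read 262, 277 and 359 FPKM, above all 8 MCAO and MCAO+Ctrl-exos libraries, and replicate 4 read 194 FPKM. Hnrnpf was 221, 276, 309.5 and 382 FPKM, and its log2 fold change of -0.44 ± 0.20 did not pass. Without replicate 4, left out because its values differed, the log2 fold change was -0.57 ± 0.19 and passed (adjusted p = 0.0459, limma).

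Srsf2 read 96.3, 102, 81.9 and 263 FPKM against 239, 235, 301 and 276 FPKM in MCAO, with replicates 1 to 3 below every other library of the series and replicate 4 among MCAO (-1.11 ± 0.29, adjusted p = 0.0358, and -1.48 ± 0.21 without replicate 4). Srsf4, which encodes an SR protein with a long RS domain, read 4.75, 7.17, 5.27 and 27.1 FPKM (-1.64 ± 0.43, adjusted p = 0.0374, and -2.15 ± 0.34 without replicate 4). Srsf9, at 23.8, 16.6, 14.4 and 61.7 FPKM, had the same split; it did not pass with all 4 libraries (-1.09 ± 0.33, adjusted p = 0.0547) and fell without replicate 4 (-1.53 ± 0.24). The SR protein genes that fell after occlusion did not share it. Srsf5 was 262, 319, 349.7 and 278 FPKM and Srsf7 was 88.4, 79.3, 78.6 and 67.1 FPKM, with log2 fold changes against MCAO of -0.00 ± 0.21 and 0.05 ± 0.26. Srsf3, one of the smallest SR proteins, ranged from 143 to 169 FPKM, a log2 fold change of 0.04 ± 0.22. Srsf3, Srsf4, Srsf9 and Hnrnpk were named after their values were seen.

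Prpf38b, at 12.8, 15.7, 16.6 and 38.7 FPKM against 44.7, 39.5, 50.9 and 43.1 FPKM in MCAO, was the PRPF gene that fell (-1.18 ± 0.34, adjusted p = 0.0461, and -1.51 ± 0.30 without replicate 4), while Prpf38a, at 28.5, 23.1, 27.8 and 15.3 FPKM, did not pass (0.53 ± 0.36). Prpf40b stayed low, at 0.08 to 0.53 FPKM. Sf3b5 was 261, 232, 209 and 282 FPKM, each value within or above the MCAO range (0.23 ± 0.24), and Sf3b6 was 113 to 137 FPKM (-0.24 ± 0.27). Among the Sm genes Snrpe was 492, 466, 421 and 1050.2 FPKM, replicates 1 to 3 below every MCAO and MCAO+Ctrl-exos library and replicate 4 above them (-0.35 ± 0.24, adjusted p = 0.376). Without replicate 4 Snrpe fell (-0.65 ± 0.18, adjusted p = 0.0184). Snrpg had 691, 718, 660.0 and 1037 FPKM and a log2 fold change of -0.02 ± 0.20.

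The difference between replicate 4 and the others ran through the list. Replicates 1 to 3 of MCAO+AS-exos lay below all 8 libraries of MCAO and MCAO+Ctrl-exos in 31 of the 69 genes (44.9%), beside 16.7% of all genes tested, and above all 8 in 2 (Hnrnpk and Snrpa), beside 6.11%. The 31 were 12 of 20 hnRNP, 5 of 10 SR protein, all 3 SR-related, 5 of 13 PRPF, 3 of 11 Sm and snRNP (Snrpd1, Snrpe and Snrpg) and 2 of 11 SF3 and U2AF genes, with Alyref. In 26 of them replicate 4 lay within the range of those 8 libraries (37.7% of the 69, beside 13.6% of all genes), among these all 12 hnRNP genes. In 16 of the 31, replicates 1 to 3 were also below every Sham library (23.2% of the 69, beside 7.71% of all genes). These orders were looked for after the libraries had been seen to differ, and are a description with no test.

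Summed over the 69 genes, the share of all FPKM was 0.717 to 0.904% in Sham, 0.873 to 0.948% in MCAO, 0.704 to 0.855% in MCAO+Ctrl-exos and 0.583 to 0.630% in replicates 1 to 3 of MCAO+AS-exos, with 0.887% in replicate 4. The median log2 difference from the MCAO mean was -0.71, -0.58 and -0.57 over the 69 genes in replicates 1 to 3 and -0.08 in replicate 4, where all genes had -0.24, -0.21, -0.16 and -0.04. Over the 20 hnRNP genes it was -1.10, -1.27, -1.38 and -0.14.

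**Figure D4:**
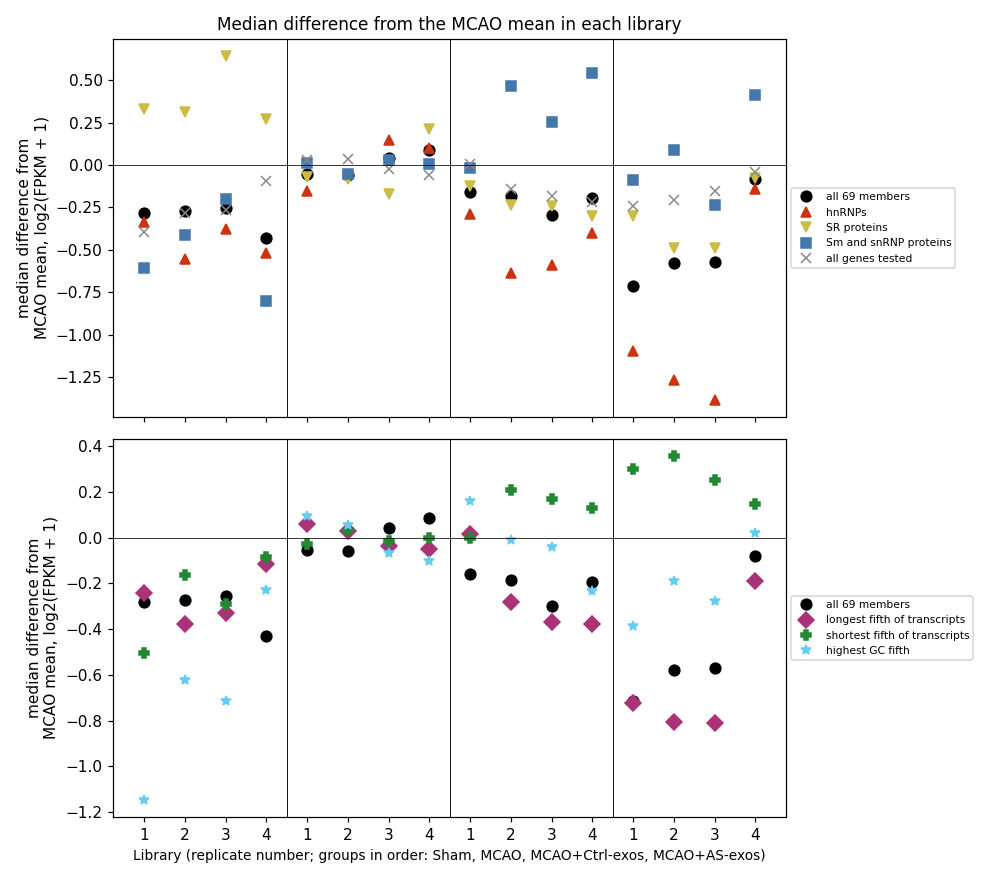
Median difference of log2(FPKM + 1) from the MCAO mean (vertical axis) in each of the 16 libraries (horizontal axis). The upper panel shows the 69 genes, hnRNPs, SR proteins, Sm and snRNP proteins and all genes tested, and the lower panel the 69 genes beside the genes with the longest transcripts, the shortest transcripts and the highest GC content (20% of genes each). Replicates 1 to 3 of MCAO+AS-exos have the lowest hnRNP medians, from -1.38 to -1.10, and the lowest medians of the longest transcripts; replicate 4 has -0.14 and -0.19.

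Other measures moved with the same 3 libraries. The 20% of genes with the longest transcripts had medians of -0.72, -0.81 and -0.81 in replicates 1 to 3 and -0.19 in replicate 4, and the 20% with the shortest had 0.30, 0.36, 0.25 and 0.15. The 69 genes together were of ordinary length (median longest transcript 3222 bases, against 3316.5 over genes tested). The SR-related (6345 bases), PRPF (4065 bases) and hnRNP genes (3714.5 bases) were longer. The SR protein genes (3294 bases), SF3 and U2AF genes (2412 bases) and Sm and snRNP genes (1690 bases) were not. The 15 genes that fell against MCAO had a median of 3814 bases, and those of the 69 not called had 3131 bases. Over all genes that fell it was 4436.5 bases. Summed monocyte markers were 27340, 25900 and 27970 FPKM in replicates 1 to 3 and 11900 FPKM in replicate 4, against 11430 to 14810 FPKM in MCAO, although none of the 15 passed the test against MCAO in either direction; 3 were higher and 1 lower at an unadjusted p under 0.05. In MCAO+Ctrl-exos the monocyte sums were 10810 to 22170 FPKM. The monocyte marker with the largest mean was Lyz2, at 6647 FPKM in MCAO and 15110 FPKM in MCAO+AS-exos. Log2 fold changes of the 15 against MCAO were positive in 9 and negative in 6, with a median of 0.171. Summed border macrophage markers were 29190, 28450 and 24140 FPKM in replicates 1 to 3 and 16180 FPKM in replicate 4, against 13860 to 17910 FPKM in MCAO and 16900 to 24500 FPKM in MCAO+Ctrl-exos, a range that holds replicate 3. Most of each sum was Apoe, whose mean was 11860 FPKM in MCAO and 20580 FPKM in MCAO+AS-exos. Of the 14 border macrophage markers tested against MCAO, 1 passed as lower and none as higher. Their log2 fold changes were positive in 10 and negative in 4. Summed neutrophil markers were 7066, 6327 and 7883 FPKM and, in replicate 4, 3497 FPKM, all within the MCAO range of 1710 to 9901 FPKM and, for replicates 1 to 3, above the 1853 to 3650 FPKM of MCAO+Ctrl-exos. With length and GC trends removed, 5 of the 69 genes fell; the part of the marker levels in the lower splicing factor values was not tested.

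Of the 130 other genes of the pathway, 22 fell (16.9%) and 2 rose (1.54%) in MCAO+AS-exos against MCAO, beside 5.08% and 1.06% of all genes; without replicate 4, 40 fell and 3 rose, beside 14.8% and 3.89%. Luc7l2, of the U1-associated LUC7 family, read 14, 17.6, 12.1 and 53.2 FPKM against 76.1, 77.9, 94.1 and 69.7 FPKM in MCAO (-1.92 ± 0.38, adjusted p = 0.0197, and -2.38 ± 0.30 without replicate 4). Sfpq, a core protein of paraspeckles, read 15.3, 15.8, 10.9 and 50.5 FPKM against 56.9, 71.2, 69.6 and 90.1 FPKM (-1.83 ± 0.36, adjusted p = 0.0197, and -2.28 ± 0.27 without replicate 4). Replicate 4 was the highest of the group in both, below the MCAO values of each gene. Luc7l3 (-1.72, and -2.06 without replicate 4) and the GU-binding regulator gene Celf1 (-1.84 and -2.20) fell too. By list, 10 of 30 other splicing regulators and 6 of 19 other nuclear RNA-binding proteins fell, 4 of 39 other spliceosome genes, 1 of 19 export genes, 1 of 17 genes of 3′ end processing and none of 6 kinases (2 lower at an unadjusted p under 0.05). The export and 3′ end shares are near that of all genes. Those that rose were Cirbp, a cold-inducible RNA-binding protein gene, and Clp1, an RNA kinase of 3′ end processing (1.64 ± 0.42, and 1.73 ± 0.45 without replicate 4), the latter named after its values were seen.

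MCAO+AS-exos against MCAO+Ctrl-exos sets the exosome groups against each other; it shares libraries with both comparisons against MCAO. No gene of the 69 passed in limma, beside 0.157% of all genes that rose and 0.129% that fell. At an unadjusted p under 0.05, 4 were higher and 21 lower, where 7.62% and 12.0% of all genes were. The median log2 fold change was -0.45 over the 69 genes and -0.08 over all genes. Groups did not overlap in 2 genes that were higher (Srsf5 and Srsf6) and 4 that were lower (Rbbp6, Srrm1, Srsf11 and Prpf6). Over all genes the shares were 5.19% and 5.02%, so neither count of the 69 was clearly above background. Nearest to the threshold were Rbbp6 (-1.41 ± 0.32, adjusted p = 0.0502) and Srrm1 (-1.11 ± 0.25, adjusted p = 0.0502), whose values did not overlap. Alyref (-1.27 ± 0.40) and Srrm2 (-1.32 ± 0.41) had adjusted p = 0.0994 and 0.0954.

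Replicate 4 of MCAO+AS-exos, whose values differed from the 3 unusually alike libraries of its group, was then left out for that reason. Without it, 23 of the 69 fell and 2 rose in that comparison, beside 8.44% and 3.52% of all genes. The fallers were 7 hnRNP, 4 SR protein, 3 SR-related, 3 PRPF, 3 Sm and snRNP and 2 SF3 and U2AF genes, with Alyref (-1.80 ± 0.29). Srrm2 was then -1.89 ± 0.28, Rbbp6 -1.70 ± 0.28 and U2af2 -2.09 ± 0.34. The risers were Hnrnpk (0.82 ± 0.20) and Srsf5 (0.69 ± 0.22). Srsf5 read 262 to 349.7 FPKM in the 4 MCAO+AS-exos libraries and 166 to 253 FPKM in MCAO+Ctrl-exos, so these groups did not overlap.

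Of the other pathway genes, Cirbp alone passed with all libraries. It read 12.9, 27.4, 24.9 and 4.89 FPKM in MCAO+Ctrl-exos and 70.6, 99.1, 111 and 52.5 FPKM in MCAO+AS-exos, replicate 4 being the lowest of its group and still above the highest control value. Its log2 fold change was 2.37 ± 0.43 (adjusted p = 0.0285), and against MCAO, at 36.2, 21.5, 20.5 and 21.7 FPKM, it was 1.68 ± 0.43 (adjusted p = 0.035). Without replicate 4 its log2 fold changes were 2.57 ± 0.47 and 1.88 ± 0.47, and 24 of the 130 fell and 3 rose against MCAO+Ctrl-exos, beside 8.44% and 3.52% of all genes.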

How the data were processed

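RNA was measured in 16 libraries of sorted cells, 4 in each of 4 groups taken from the labels. The authors deposited 1 expression value per gene and library, taken here as FPKM since the submitters' processing notes name RSEM 1.3.1 and library totals differ; the notes also name HISAT2, Bowtie2 and build GRCm39.p6, while settings and annotation are not given in the sources used here. In all 16 libraries the single-library tables matched the joint table. Genes at 1 FPKM or more in at least 4 libraries (10846) were tested on log2(FPKM + 1) with limma 3.58.1 in R 4.3.3: a model of 4 group means, empirical Bayes with trend and robust options, two-sided, with Benjamini-Hochberg adjustment over all genes tested and a threshold of 0.05. The code was tested on simulated data. Transcript length and GC content came from GENCODE M21 (build GRCm38), used by gene name only.

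Named were, per comparison and direction, the 5 genes with the largest change among those called without overlap of values, the 2 highest of each role, Alyref, U2af1, U2af2 and Rbbp6, and the 4 other pathway genes with the smallest p per comparison. Of the 69 genes, 1 enters the counts and is not reported singly here. The genes and lists were chosen with earlier results of these data known. Alternatives tried were other normalizations, filters and variance models, library weights, a replicate block, and leaving libraries out. Depth is unknown, so counting error could not be given.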

Additional observations from a re-analysis of the deposited data

Results flagged for a closer look

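Among 31 named genes in 4 groups each, 124 sets of 4 values were examined for a library whose gap to the nearest other as a share of the whole range exceeded Dixon's critical value on the scale of log2(FPKM + 1). The number found was 8 of the 124, close to the about 1 in 20 that chance gives. On the linear FPKM scale it was 21, of which 15 were in MCAO+AS-exos replicate 4, and 7 were found on both scales. Of the 8, whose values are given here in FPKM, 3 were in MCAO+AS-exos replicate 4: U2af2 at 49.68 FPKM with the others at 6.6 to 7.12 FPKM, Srrm2 at 82.21 FPKM with the others at 14.89 to 19.72 FPKM, and Snrpe at 1050.25 FPKM with the others at 421.07 to 492.17 FPKM. In Sham, U2af2 was 6.08 FPKM in replicate 1 with the others at 13.65 to 15.86 FPKM, and Prpf38a was 47.72 FPKM in replicate 2 with the others at 36.48 to 37.8 FPKM. In MCAO, Cirbp was 36.24 FPKM in replicate 1 with the others at 20.46 to 21.69 FPKM, and Hnrnpf was 489.91 FPKM in replicate 3 with the others at 361.06 to 377.06 FPKM. Prpf40b was 1.24 FPKM in MCAO replicate 4 with the others at 0 to 0.07 FPKM.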

How the results depend on the processing

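For MCAO against Sham, the counts of the 69 genes and of all genes stayed within 1.5 times under every alternative run; leaving out 1 library gave 15 to 21 risers, 6 to 9 fallers and 3814 to 4455 calls over all genes. For MCAO+AS-exos against MCAO, leaving out 1 library gave 0 to 28 fallers and 0 to 1 risers of the 69 and 0 to 2024 calls over all genes, against 666. Quantile normalization gave 8 fallers and 318 calls, removal of length and GC trends 5 and 170, only the 8 libraries compared 1 and 31, and library weights 35 fallers, 1 riser and 3955 calls. For MCAO+AS-exos against MCAO+Ctrl-exos, leaving out 1 library gave 0 to 23 fallers, 0 to 2 risers and 1 to 1297 calls, against 31. There, quantile normalization gave 1 faller (Srrm1) and 88 calls, length and GC removal 1 (Srrm1) and 64, a minimum of 5 FPKM 2 (Rbbp6 and Srrm1) and 93, library weights 34 fallers, 5 risers and 3266 calls, no trend or robust option 16 calls and only the 8 libraries 9 calls. For MCAO+Ctrl-exos against MCAO, none of the 69 passed with 1 library left out or in the alternatives named so far; calls over all genes were 2 to 89 with 1 library left out, 5 with equal totals, 4 with length and GC removed, 3 without a filter, 2 without trend and robust options, 59 with library weights and 3 with only the 8 libraries, against 8. The cause of these shifts was not tested. Some of these fits also held fewer libraries.

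With both MCAO+AS-exos replicate 4 and MCAO+Ctrl-exos replicate 1 left out, chosen after seeing the data, the fallers, risers and calls over all genes were 29, 1 and 2155 for MCAO+AS-exos against MCAO, 17, 2 and 1088 against MCAO+Ctrl-exos, and 2, 1 and 168 for MCAO+Ctrl-exos against MCAO. Replicate numbers did not pair the libraries: residuals of same-numbered libraries had correlations of -0.15 to 0.09. With the replicate block, 18 of the 69 genes rose and 9 fell after occlusion and 12 fell in MCAO+AS-exos against MCAO, with 5 calls over all genes for MCAO+Ctrl-exos against MCAO and 68 between the exosome groups. No named gene that passed as reported or in an alternative had opposite signs between them; values near 0 that passed in neither did, such as Prpf40b in MCAO+AS-exos against MCAO (-0.03, and 0.03 without replicate 4).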
